A study of Mus musculus with 3 samples.

Results

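The 7 genes described here belong to the aryl hydrocarbon receptor pathway: Ahr, Arnt, Ahrr, Cyp1a1, Cyp1b1, Tiparp and Nqo1. They were chosen by name, and each had 1 row among the 52636 gene rows of the count tables. The cells were JM8.N4 mouse embryonic stem (ES) cells of the C57BL/6N strain in which the cohesin subunit RAD21 was fused to an auxin-induced degron, a tag that has the protein destroyed once auxin is added. Control cells were left untreated, and auxin-treated cells received 500 µM indole-3-acetic acid (IAA) for 6 h. Both conditions used the same edited line, grown without feeders in serum, LIF and the inhibitors PD0325901 and CHIR99021, and sorted into plates. The design had 3 replicates, and no auxin-treated cells without the degron are among the samples, so that an effect of auxin itself and an effect of RAD21 loss cannot be told apart in what follows.

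The aryl hydrocarbon receptor, encoded by Ahr, is a ligand-activated transcription factor of the bHLH-PAS family that waits in the cytoplasm bound to the chaperone HSP90. Planar aromatic molecules, among them several indoles, can bind it. It then enters the nucleus, pairs with ARNT and binds xenobiotic response elements near its target genes. Cyp1a1 and Cyp1b1 encode cytochrome P450 enzymes that oxidize such ligands and are classical targets, Ahrr encodes a repressor that competes for ARNT, Tiparp encodes an ADP-ribosyltransferase that restrains the receptor, and Nqo1 encodes a quinone reductase that both this receptor and the factor NRF2 can induce. Auxin is an indole, and the genes therefore ask whether the compound used to remove cohesin leaves a trace of its own.

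Single cells were profiled by Smart-SCRB, in which each captured transcript molecule carries a unique molecular identifier (UMI). A level is given as UMIs of a gene per 1000000 UMIs of the cells summed (CPM). A cell was retained when over 2600 genes were detected in it, which left 1335 cells on 16 plates. In replicate 1 the deposited annotation calls the plates RAD21 positive and RAD21 negative, read here as control and auxin-treated. The deposited annotation and the source values of the study assign opposite conditions to 2 of the 4 plates of replicate 3, and the 168 cells of these disputed plates were left out of the comparisons. The other 14 plates are called settled. Those of replicates 1 and 2 could not be matched to the source values, so their condition rests on the annotation alone. The 14 settled plates comprised 168 control and 169 auxin-treated cells of replicate 1. Replicate 2 contributed 371 and 290 cells and replicate 3 contributed 85 and 84. The median UMI count per cell ranged from 72317 to 187088 over these 6 groups. ES cell markers were present but uneven between replicates, with Nanog between 38.9 and 563.1 CPM and Dppa5a between 2118 and 7998 CPM over the 6 sums, and Sox2 was listed at 0 in both conditions of replicates 2 and 3. Pou5f1 stood at 273.3 and 227.6 CPM in replicate 1 and at 5.81 to 12.5 CPM in the others, and Tfcp2l1 at 4.10 and 2.52 CPM in replicate 2. Of the 8 ES cell markers, Pou5f1, Esrrb and Utf1 were lower after auxin in all 3 replicates, and of 5 primitive endoderm markers Sox17 and Pdgfra were higher and the other 3 lower in all 3. Of all genes tested, 13.7% were lower and 15.6% were higher in all 3. None of these markers passed the test in edgeR, with or without the block. In the blocked edgeR fit the unadjusted p was 0.0163 for Pou5f1, 0.0125 for Esrrb, 0.00608 for Utf1, 0.0127 for Sox17 and 0.0556 for Pdgfra. In that fit it was 0.153 for Gata4, 0.181 for Gata6 and 0.235 for Dab2. For the tested ES cell markers of mixed direction it lay between 0.115 (Dppa5a) and 0.473 (Zfp42). The part of these markers in the results below was not tested. The 5 fibroblast markers summed to between 2.76 and 13.03 CPM. Rad21 mRNA, which the degron does not act on, stood at 20.9, 31.2 and 42.4 CPM in control and at 19.3, 34.0 and 45.2 CPM in auxin-treated cells of replicates 1, 2 and 3.

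The stretches of sequence around the start sites of 4 members show where the letters of the receptor's binding element lie. Each window holds the 250 bases before and the 50 bases after the RefSeq start on GRCm38.p6, written in the direction of transcription, and capitals mark the core of the xenobiotic response element, GCGTG or its reverse complement CACGC. The Cyp1a1 window is chr9:57697363-57697662 (plus strand), the Cyp1b1 window chr17:79715012-79715311 (minus strand), the Ahrr window chr13:74292282-74292581 (minus strand) and the Nqo1 window chr8:107403156-107403455 (minus strand).
Cyp1a1: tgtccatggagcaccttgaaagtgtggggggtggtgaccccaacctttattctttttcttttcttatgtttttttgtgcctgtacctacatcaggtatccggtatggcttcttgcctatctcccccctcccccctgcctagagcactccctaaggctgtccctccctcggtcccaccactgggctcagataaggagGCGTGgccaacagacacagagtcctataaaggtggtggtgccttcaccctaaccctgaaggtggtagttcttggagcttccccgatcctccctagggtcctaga
Cyp1b1: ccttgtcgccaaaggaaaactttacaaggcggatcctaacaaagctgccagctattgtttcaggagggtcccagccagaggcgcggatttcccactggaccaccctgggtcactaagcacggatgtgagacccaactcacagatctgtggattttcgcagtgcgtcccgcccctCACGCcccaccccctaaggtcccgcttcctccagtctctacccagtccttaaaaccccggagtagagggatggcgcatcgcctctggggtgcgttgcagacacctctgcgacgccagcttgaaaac
Ahrr: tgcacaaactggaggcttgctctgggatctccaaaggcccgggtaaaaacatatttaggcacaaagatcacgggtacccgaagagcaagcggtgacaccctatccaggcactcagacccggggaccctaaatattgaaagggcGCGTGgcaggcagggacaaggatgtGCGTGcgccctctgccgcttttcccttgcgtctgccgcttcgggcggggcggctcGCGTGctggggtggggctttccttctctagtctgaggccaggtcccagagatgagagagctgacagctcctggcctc
Nqo1: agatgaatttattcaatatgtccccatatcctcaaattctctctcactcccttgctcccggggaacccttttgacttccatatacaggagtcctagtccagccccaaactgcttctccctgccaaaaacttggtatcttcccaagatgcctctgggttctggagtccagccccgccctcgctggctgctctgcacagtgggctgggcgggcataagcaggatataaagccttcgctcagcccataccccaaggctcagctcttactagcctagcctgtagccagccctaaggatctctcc
These 4 were chosen because they are the targets and the repressor that the single-cell results below turn on. The Cyp1a1 window held 1 match, 54 bases before the start and close to the tataaa run, and the Cyp1b1 window held 1, 76 bases before the start. Ahrr had 3 matches, at 107, 82 and 27 bases before its start. Nqo1 had none in this window, nor did it hold TGACNNNGC or GCNNNGTCA, the core of the antioxidant response element that NRF2 binds. Arnt and Tiparp held 1 match each, and Ahr had no entry in the table. A match is only a string of letters, and 32.4% of 32851 promoter windows of this length held GCGTG or CACGC, against 12.4% for the antioxidant core. The 2 motifs can share bases.

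The receptor gene itself was low in every group and was found in at most 9.52% of cells. Ahr (ENSMUSG00000019256, chr12:35497974-35535038) gave 0.777, 1.41 and 0.330 CPM in the control cells of replicates 1, 2 and 3, and 1.61, 1.25 and 3.14 CPM in the auxin-treated cells. The control value of replicate 3 rests on 2 UMIs in 1 cell. The levels of both conditions overlapped, and the ratio of auxin-treated to control was above 1 in 2 of 3 replicates. Ahr UMIs were found in 1.79%, 7.82% and 1.18% of control cells and in 3.55%, 6.21% and 9.52% of auxin-treated cells. The fitted log2 fold change was 1.16 ± 0.82 (SE, n = 3 replicates, adjusted p = 1, edgeR with Benjamini-Hochberg adjustment), a difference within the spread between replicates. Without replicate 2 it was 1.90 and without replicate 3 it was 0.43. A lincRNA, Gm48236, overlaps Ahr on the other strand in the GENCODE annotation.

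Arnt, the gene for the partner that the receptor shares with the hypoxia-inducible factors, was detected in most cells of replicates 2 and 3. Its level was 11.3, 36.2 and 37.3 CPM in control and 16.6, 29.1 and 35.7 CPM in auxin-treated cells. Replicate 1 was low in both conditions, and the direction differed between replicates. In replicate 2, the 4 control plates ranged from 27.8 to 42.0 CPM and the 4 auxin plates from 26.0 to 30.6 CPM (two-sided exact permutation test over plates, p = 0.114, adjusted over the 7 genes 0.400). The fit gave a log2 fold change of -0.03 ± 0.42 (SE, n = 3, adjusted p = 1, edgeR), and its sign turned to 0.03 ± 0.20 with the replicate as a block. The Arnt locus (ENSMUSG00000015522, chr3:95434388-95497240) contains a processed pseudogene, Gm42672, on the same strand, whose reads cannot be told apart here.

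Ahrr, the gene for the repressor of the receptor, was higher after auxin in replicate 1, lower in replicate 2 and little different in replicate 3. Control cells held 2 UMIs in replicate 1 (0.111 CPM), 63 in replicate 2 (1.28 CPM) and 10 in replicate 3 (1.65 CPM). Auxin-treated cells held 52, 42 and 14 UMIs, or 2.70, 0.833 and 2.09 CPM. The ratio in replicate 1 was 24.4 with an exact 95% counting interval from 6.41 to 206.5, that in replicate 2 was 0.648 (0.428 to 0.973), below 1, and that in replicate 3 was 1.27 (0.525 to 3.20). These intervals cover counting error only. In replicate 1, Ahrr UMIs were present in 2 of 168 control cells and 15 of 169 auxin-treated cells. Across replicates the fitted log2 fold change was 1.08 ± 1.04 (SE, n = 3, adjusted p = 1, edgeR), and without replicate 1 it was -0.04. The log2 ratio of replicate 3 turned from 0.34 to -0.52 with the disputed plates as in the source values. The gene lies on chromosome 13 (ENSMUSG00000021575, chr13:74211118-74292331) and overlaps no other annotated gene.

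Cyp1a1, the most widely used indicator of receptor activity, was nearly undetected in control cells and higher in auxin-treated cells of all 3 replicates. The control sums held 7, 4 and 1 UMIs in replicates 1, 2 and 3, which is 0.388, 0.0816 and 0.165 CPM. The auxin-treated sums held 359, 35 and 143 UMIs, which is 18.7, 0.694 and 21.4 CPM. The lowest auxin-treated sum lay above the highest control sum, as it did for 1.62% of the 17514 genes tested, and no other member shared this separation. The ratio was 48.1 in replicate 1 (exact 95% counting interval 23.1 to 120.4), 8.51 in replicate 2 (3.04 to 32.95) and 129.7 in replicate 3 (22.9 to 5159). The last rests on a single control UMI. The gene is on chromosome 9 (ENSMUSG00000032315, chr9:57687928-57703824, plus strand) with no overlapping gene, and its annotation includes a transcript that begins upstream of the RefSeq start.

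By plate, the contrast was clear in replicates 1 and 3 and weak in replicate 2. The 2 control plates of replicate 1 stood at 0.834 and 0 CPM and the 2 auxin plates at 18.9 and 18.4 CPM. The single settled plates of replicate 3 stood at 0.165 CPM in control and 21.4 CPM after auxin. The control plates of replicate 2 gave 0, 0.0812, 0.0816 and 0.163 CPM, and its auxin plates gave 2.16, 0.476, 0.163 and 0.0737 CPM. The latter 2 auxin plates overlapped the control plates, and 26 of the 35 UMIs came from 1 plate. A two-sided exact permutation test over the 4 and 4 plates of replicate 2 gave p = 0.171 (adjusted over the 7 genes 0.400, the smallest p this design allows being 0.0286). Plates of 1 culture are technical units, so this p measures the spread between plates.

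**Figure D1:**
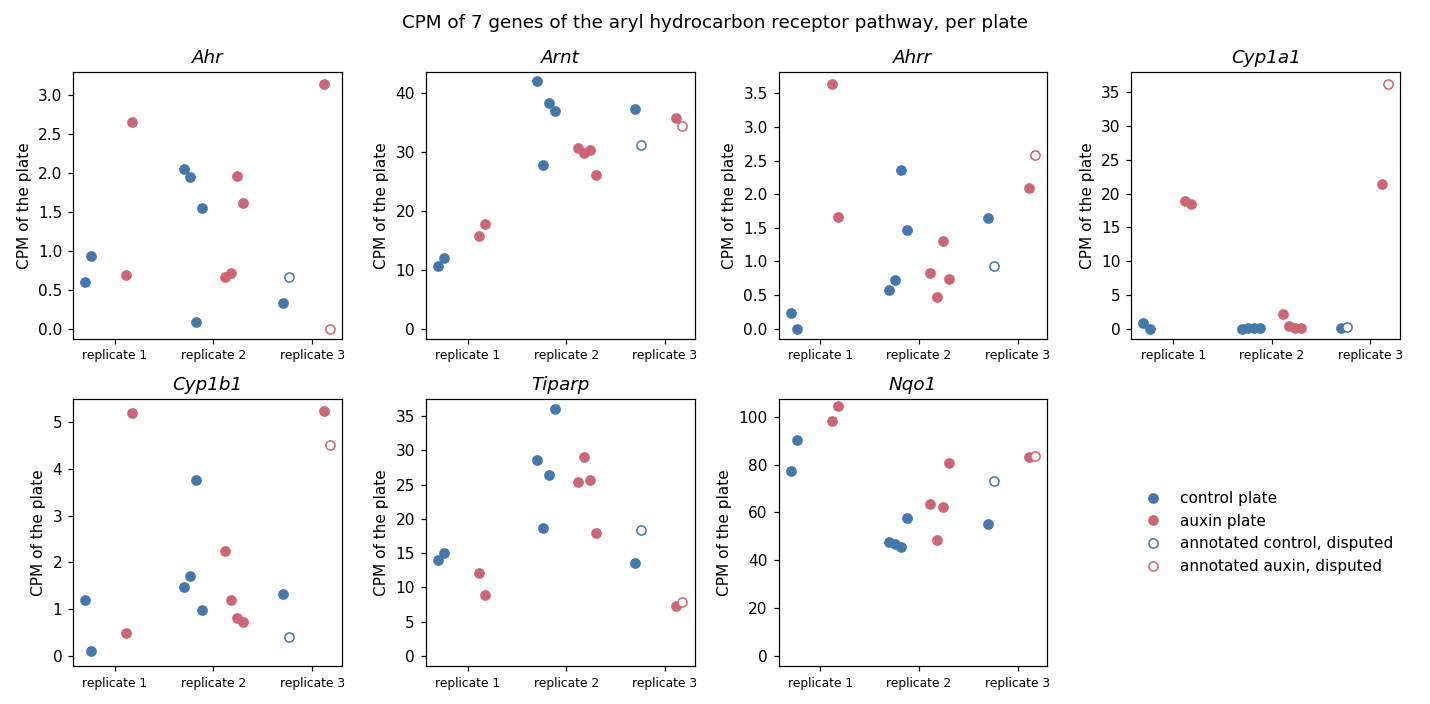
CPM of each of the 7 genes (vertical axis, linear, own scale per gene) on each of the 16 plates, grouped by replicate along the horizontal axis, with filled points for plates of settled condition and open points for the disputed plates of replicate 3 in the colour of their annotation. Cyp1a1 sits at 18.4 to 21.4 CPM on the settled auxin plates of replicates 1 and 3 and at or below 0.834 CPM on every settled control plate.

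The test over all genes did not call Cyp1a1 when the replicates were treated as unpaired. edgeR without a block gave a log2 fold change of 5.94 ± 1.52 (SE, n = 3 replicates, unadjusted p = 0.00669, adjusted p = 1), the largest fitted log2 fold change among 17514 genes, and called 0% of genes (33 genes had an unadjusted p under 0.05, and DESeq2 without the block also called 0, with a log2 fold change of 5.94 ± 1.28 and an adjusted p of 0.0583 for Cyp1a1). The replicate numbers pair the sums, and in the fit that blocks on the replicate the log2 fold change was 5.15 ± 0.59 (unadjusted p = 1.51e-05, adjusted p = 0.0623, edgeR), number 4 of all genes by p in a fit that called 0.0171% of genes. DESeq2 with the block placed Cyp1a1 past the threshold (log2 fold change 5.11 ± 0.67, adjusted p = 8.76e-11) and called 0.539% of the genes with an adjusted p. edgeR on the sums of the 14 plates, with the block and without a filter on low counts, gave 4.92 ± 0.77 (adjusted p = 0.00532) and called 0.437% of genes, but plates of 1 culture are technical units and its p counts them as if they were replicates. Without replicate 2, the blocked edgeR fit gave 5.87 ± 0.51 (adjusted p = 3.62e-05), without replicate 1 the adjusted p was 0.0486, and without replicate 3 it was 0.63. The mean log2 ratio of the 3 replicates was 5.23 ± 1.99 (SD, n = 3), and flipping the signs of the 3 ratios gave an exact two-sided p of 0.25, which is the lowest that 3 replicates allow.

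**Figure D2:**
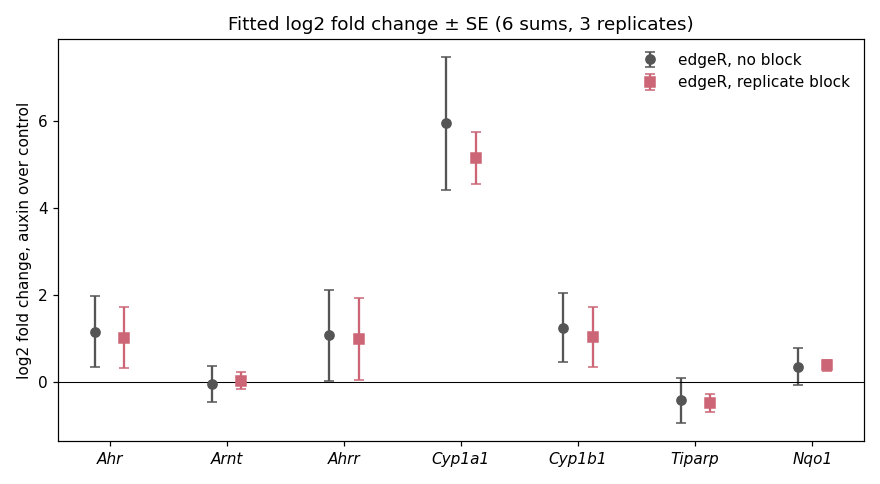
Fitted log2 fold change of auxin-treated over control sums (vertical axis) for the 7 genes (horizontal axis) in edgeR without and with the replicate as a block, with bars of 1 SE. Cyp1a1 stands at 5.94 and 5.15, and the other 6 genes lie between -0.48 and 1.25.

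The Cyp1a1 signal came from a minority of cells. A Cyp1a1 UMI was present in 26 of 169 auxin-treated cells of replicate 1 (15.4%, exact 95% binomial interval 10.3 to 21.7), in 7 of 290 of replicate 2 (2.41%, 0.976 to 4.91) and in 13 of 84 of replicate 3 (15.5%, 8.51 to 25.01). In control cells the counts were 1 of 168 (0.595%, 0.0151 to 3.27), 4 of 371 (1.08%, 0.295 to 2.74) and 1 of 85 (1.18%, 0.0298 to 6.38). Genes typical of distant tissues give a level to set beside these shares. Alb, Gfap, Ins2, Myh6, Ptprc and Umod had a UMI in at most 11.7% of the cells of any group, and in the auxin-treated cells of replicates 1 and 3 in at most 3.55% and 4.76%, but Cd3e, a T cell gene, had one in 18.9% and 26.2% there and in 20.2% and 34.1% of the matching control cells. All 6 Cyp1a1 shares thus lay within or below the range that Cd3e spans, and only the auxin shares of replicates 1 and 3 lay above the other 6 genes, so that a share by itself is not read as expression in any group. The mean difference in share was 10.1 ± 7.63 percentage points (SD, n = 3, exact two-sided p from sign flips 0.25). After every cell was thinned to 20000 UMIs the auxin shares were 11.2%, 1.08% and 8.86%, and the mean difference was 6.86 percentage points. Between 0 and 13 cells per group were too shallow for this thinning.

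Within the positive cells the counts were spread widely. The 26 positive auxin-treated cells of replicate 1 held a median of 8 UMIs and at most 56, and 16 of them held more than 5. The 13 positive cells of replicate 3 held a median of 9 and at most 28, with 9 above 5. In replicate 2 the median was 2, 2 of 7 cells held more than 5, and 1 cell with 19 UMIs supplied 54.3% of the sum. The control cells of replicates 2 and 3 never held more than 1 UMI, and the 7 control UMIs of replicate 1 sat in 1 cell. The 3 highest cells held 45.1% of the auxin UMIs in replicate 1 and 51.1% in replicate 3. None of the 201 wells at or below 2600 detected genes held a Cyp1a1 UMI among their 719551 UMIs.

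**Figure D3:**
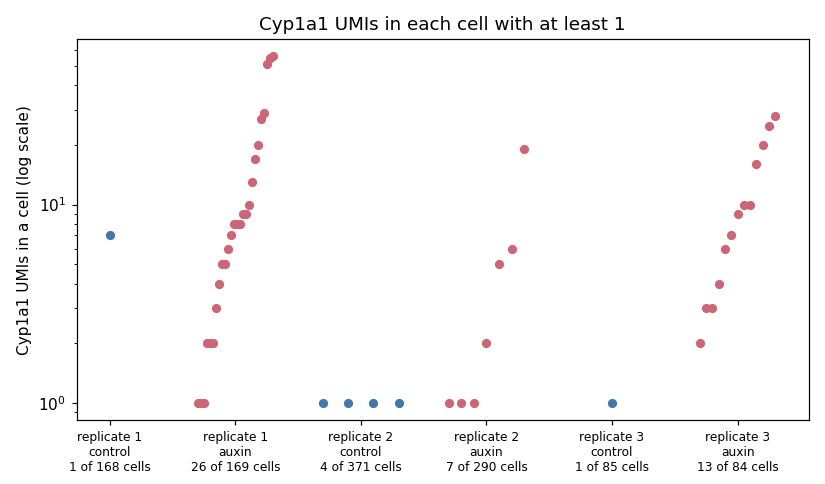
Cyp1a1 UMIs (vertical axis, log scale) in every cell with at least 1, for control and auxin-treated cells of each replicate along the horizontal axis, where points within a group are ordered by value. Auxin-treated cells reach 56, 19 and 28 UMIs in replicates 1, 2 and 3, and control cells reach 7, 1 and 1.

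The disputed plates of replicate 3 decide part of this result. The plate annotated auxin held 225 Cyp1a1 UMIs (36.2 CPM), found in 13 of 77 cells, and the plate annotated control held 2 UMIs (0.265 CPM) in 2 of 91 cells. With both plates placed as annotated, the log2 ratio of replicate 3 was 7.02. Placed as in the source values it was -0.85, and the fitted log2 fold change over the 3 replicates fell to 0.90 without the block (adjusted p = 1, edgeR) and to 2.05 ± 1.14 with it (adjusted p = 0.985). No condition was read from these values.

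Cyp1b1 is the second P450 target and was low in every group. The level was 0.610, 1.98 and 1.32 CPM in control and 2.70, 1.23 and 5.23 CPM in auxin-treated cells of replicates 1, 2 and 3. Auxin-treated cells were higher in replicates 1 and 3, with ratios of 4.43 (counting interval 2.28 to 9.42) and 3.97 (1.81 to 9.90), and lower in replicate 2, with a ratio of 0.621 (0.444 to 0.863). With the disputed plates as in the source values, the log2 ratio of replicate 3 turned from 1.99 to -0.13 and the fitted log2 fold change fell from 1.25 to 0.36. In replicate 1, 1 cell held 53.8% of the 52 auxin UMIs, and the auxin plates stood at 0.491 and 5.19 CPM against 1.19 and 0.104 CPM on the control plates. The share of positive cells was 1.79%, 15.1% and 9.41% in control and 4.14%, 10.7% and 8.33% in auxin-treated cells, which moved with the level in replicates 1 and 2 and against it in replicate 3. The mean difference in share was -1.04 percentage points, and 2.81 when a cell needed 2 or more UMIs to count. It was also positive with the disputed plates as annotated (1.58) and without replicate 2 (0.639), and -3.31 with these plates as in the source values. All 8 positive control cells of replicate 3 held 1 UMI, whereas its 7 positive auxin-treated cells held 5 on average. The fitted log2 fold change was 1.25 ± 0.79 (SE, n = 3, adjusted p = 1, edgeR), within the spread between replicates. In the unblocked fits without 1 replicate it ranged from 0.73 (without replicate 3) to 2.05 (without replicate 2). In the blocked ones it ranged from 0.45 (without replicate 1) to 2.05 (without replicate 2). The gene lies at chr17:79701537-79715061 (ENSMUSG00000024087).

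Tiparp, whose product restrains the receptor and which the receptor can induce, went the other way. Its level was 14.5, 27.4 and 13.5 CPM in control and 10.6, 24.4 and 7.33 CPM in auxin-treated cells, lower after auxin in all 3 replicates, as was the case for 13.7% of the genes tested. The log2 ratios were -0.45, -0.17 and -0.88 (exact two-sided p from sign flips 0.25, n = 3). The plates of replicate 2 overlapped, with 18.7 to 36.0 CPM in control and 18.0 to 29.1 CPM after auxin (two-sided exact permutation test over plates, p = 0.400). A Tiparp UMI was found in 30.4%, 48.3% and 25.9% of control cells and in 21.3%, 43.4% and 23.8% of auxin-treated cells. The fit gave a log2 fold change of -0.42 ± 0.52 (SE, n = 3, adjusted p = 1) without the block and -0.48 ± 0.21 (unadjusted p = 0.0456, adjusted p = 0.841) with it, both in edgeR, so that Tiparp did not pass the test. With the disputed plates placed as in the source values the log2 ratio of replicate 3 was 0.31. A pseudogene, 4931440P22Rik, overlaps the locus (ENSMUSG00000034640, chr3:65528410-65555518) on the other strand.

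Nqo1, the quinone reductase gene, was well detected and slightly higher after auxin in every replicate. It measured 84.2, 49.3 and 55.1 CPM in control and 101.1, 64.1 and 83.2 CPM in auxin-treated cells. The ratios were 1.20, 1.30 and 1.51, and 15.6% of all genes tested were likewise higher in all 3 replicates. In replicate 1 the 2 auxin plates (98.3 and 104.4 CPM) lay above the 2 control plates (77.3 and 90.2 CPM). The 4 control plates of replicate 2 ranged from 45.4 to 57.6 CPM and its 4 auxin plates from 48.5 to 80.6 CPM, which overlap (two-sided exact permutation test over plates, p = 0.0571, adjusted over the 7 genes 0.400). The share of positive cells was 63.1%, 56.1% and 60.0% in control and 70.4%, 56.2% and 73.8% in auxin-treated cells. The log2 fold change was 0.36 ± 0.42 (SE, n = 3, adjusted p = 1, edgeR) and 0.39 ± 0.12 with the replicate block (unadjusted p = 0.0121, adjusted p = 0.739). The gene lies at chr8:107388225-107403206 (ENSMUSG00000003849).

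**Figure D4:**
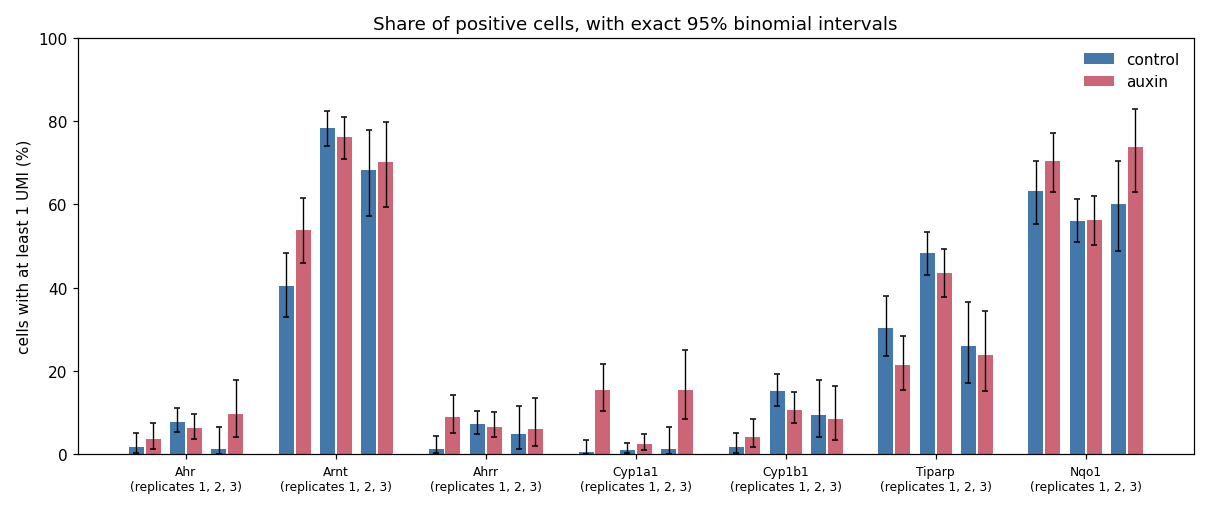
Share of cells with at least 1 UMI of each gene (vertical axis, percent), as pairs of control and auxin-treated bars for replicates 1, 2 and 3 along the horizontal axis, with exact 95% binomial intervals that cover counting error only. The Cyp1a1 bars reach 15.4% and 15.5% in the auxin-treated cells of replicates 1 and 3 and 2.41% in replicate 2.

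Cells that held a Cyp1a1 UMI also differed from their neighbours of the same condition in other members, which is given as a description without a test, since the cells of a culture are not replicates. In the auxin-treated cells of replicate 1, Ahrr was found in 8 of 26 cells with Cyp1a1 (30.8%) and in 7 of 143 cells without (4.90%). In replicate 3 it was found in 3 of 13 (23.1%) and in 2 of 71 (2.82%). The level of Nqo1 was 182.8 CPM in the cells with Cyp1a1 against 85.8 CPM in the others in replicate 1, and 168.2 against 65.0 CPM in replicate 3, where all 13 cells with Cyp1a1 held Nqo1. In replicate 1, 1 cell held 155 of the 555 Nqo1 UMIs of the cells with Cyp1a1. There the share of cells with Nqo1 was 76.9% against 69.2%, and the median 11.5 against 6 UMIs. Cyp1b1 was found in 5 of 13 against 2 of 71 cells in replicate 3, and in 2 of 26 against 5 of 143 cells in replicate 1. A larger share among the cells with Cyp1a1 in both replicates was not particular to these 3 genes. It was also seen for Ahr, Arnt and Hmox1 and, of the listed genes named below, for Slc7a5, Txnrd1, Srxn1, Epas1 and Ido2. Nfe2l2, Hif1a, Il4i1 and Abcb1a had a smaller share in both. Ahr was found in 1 of 26 (3.85%) against 5 of 143 cells (3.50%) in replicate 1. Its level there went the other way, at 0.329 against 1.85 CPM. In replicate 3 Ahr was found in 15.4% against 8.45%. Hmox1, an NRF2 target that encodes haem oxygenase, was found in 84.6% against 69.2% in replicate 1 and 92.3% against 57.7% in replicate 3.

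Tiparp was found in 15.4% of cells with and 22.4% of cells without Cyp1a1 in replicate 1, and in 30.8% and 22.5% in replicate 3, so that its direction differed. Arnt was found in 57.7% of cells with and 53.1% of cells without Cyp1a1 in replicate 1, in 84.6% and 67.6% in replicate 3, and in all 7 and 75.6% in replicate 2. In replicate 2, where 7 cells held a Cyp1a1 UMI, Nqo1 stood at 47.3 CPM in them and 64.5 CPM in the others. Ahrr was found in 0 of these 7 cells (exact 95% binomial interval up to 41.0%) and 19 of the 283 others, and Cyp1b1 in 1 of 7 and 30 of 283. These few cells are given as values only. The median UMI count of cells with and without Cyp1a1 was 119800 against 113079 in replicate 1, 157326 against 187688 in replicate 2, and 87437 against 74415 in replicate 3. Cells with Cyp1a1 were thus deeper in replicates 1 and 3 and shallower in replicate 2. The part of depth in these shares was not tested.

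On the disputed plate annotated auxin, Nqo1 stood at 201.7 CPM in the 13 cells with Cyp1a1 and 55.4 CPM in the 64 others. Cyp1b1 was found there in 8 of 13 cells with Cyp1a1 (61.5%) and in 6 of 64 without (9.38%), and Ahrr in 2 of 13 and 4 of 64. Arnt was found in 76.9% against 65.6%. The shares of Hmox1 (61.5% against 65.6%) and Tiparp (15.4% against 17.2%) were smaller in the cells with Cyp1a1.

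**Figure D5:**
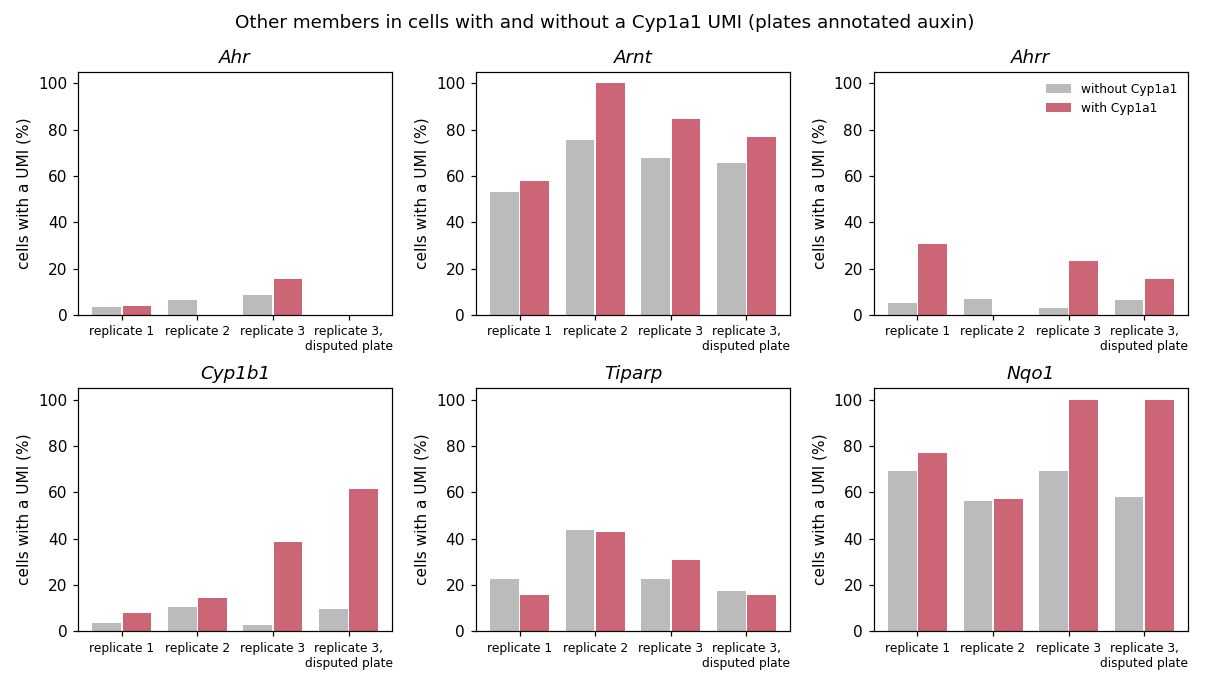
Share of cells with a UMI (vertical axis, percent) of each of the other 6 members among cells without (grey) and with (red) a Cyp1a1 UMI, for the auxin-treated cells of each replicate and for the disputed plate annotated auxin. Ahrr stands at 30.8% against 4.90% in replicate 1, and Nqo1 was found in all 13 such cells of replicate 3 against 69.0% of the others. The bars of replicate 2 rest on 7 cells with Cyp1a1.

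Other genes of the pathway and its neighbours were examined as lists, described by counts and medians. The 5 genes for chaperones and partners of the receptor were all tested, none passed in either direction (adjusted p, edgeR), and their log2 fold changes had a median of -0.01 (median of all genes tested, -0.00). Hsp90ab1, which encodes the HSP90 isoform of highest level here, stood at 4581, 3885 and 3560 CPM in control and 4250, 4626 and 3576 CPM in auxin-treated cells. Ptges3, the gene for the co-chaperone p23, had a log2 fold change of -0.01 ± 0.23 (SE), and Hsp90aa1 one of -0.17 ± 0.73.

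Of 12 other reported receptor targets, 7 passed the filter on low counts and 0 passed the test in either direction, with log2 fold changes between -0.84 and 0.23 and a median of -0.25. Cyp1a2, the liver counterpart of Cyp1a1, was at most 0.312 CPM in any sum. Nfe2l2, which encodes NRF2, stood at 86.9, 51.9 and 93.2 CPM in control and 99.8, 50.5 and 76.4 CPM after auxin. Slc7a5, the gene for a transporter of large neutral amino acids including tryptophan, was lower in all 3 replicates, at 14.2, 19.1 and 9.73 CPM in control and 8.63, 9.59 and 5.98 CPM after auxin, without passing the test (log2 fold change -0.84 ± 0.22 with the block, unadjusted p = 0.00519, adjusted p = 0.680, edgeR). Stc2, the gene for a secreted glycoprotein, had a log2 fold change of -0.82 ± 1.30 (SE).

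The 9 genes of the NRF2 pathway, which shares Nqo1 with the receptor, were all tested and 0 passed in either direction, with a median log2 fold change of 0.01 and a range from -0.64 to 0.67. Of the 9, 2 were higher and 1 was lower in all 3 replicates, against 15.6% and 13.7% of all genes tested. Srxn1, the gene for sulfiredoxin, was higher in all 3 replicates, at 22.6, 20.2 and 12.4 CPM in control and 30.2, 38.6 and 22.1 CPM after auxin, without passing the test (log2 fold change 0.71 ± 0.18 with the block, unadjusted p = 0.00364, adjusted p = 0.652, edgeR). Txnrd1, the gene for thioredoxin reductase, was higher in all 3 by less, at 233.3, 282.1 and 121.2 CPM against 237.9, 322.6 and 132.5 CPM. Gclm, which encodes a subunit of the enzyme that starts glutathione synthesis, was higher in 2 of 3. Within the auxin-treated cells of replicate 1, Srxn1 stood at 23.1 CPM in cells with Cyp1a1 and 31.6 CPM in those without, and in replicate 3 at 41.6 and 18.0 CPM.

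Among 7 other bHLH-PAS genes, the 4 tested had log2 fold changes between -0.69 and 0.09 (median -0.02) and 0 passed. Epas1, Hif1a and Npas3, whose products can also pair with ARNT, had log2 fold changes of 0.03 ± 0.53, -0.07 ± 1.00 and 0.09 ± 1.64 (SE). Of 7 enzymes of tryptophan catabolism, which can give rise to receptor ligands, 3 were tested and 0 passed. The 3 had log2 fold changes between -0.46 and 0.94 (median 0.45). The summed level of the 7 lay between 4.27 and 17.5 CPM, with Ido2 and Il4i1 highest. Of 6 genes tied to the pregnane X and constitutive androstane receptors, the other main sensors of foreign compounds, 4 were tested and 0 passed, with a median of 0.04. Abcb1a, the gene for an efflux transporter, stood at 14.6, 0.754 and 15.0 CPM in control and 21.2, 2.10 and 16.4 CPM after auxin. Cyp3a13, a P450 gene of this group, had a log2 fold change of -0.32 ± 1.99.

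Over the 6 lists together, 31 of 45 genes were tested and 0 were called by edgeR or DESeq2, with or without the block. At an unadjusted p under 0.05 there were 0 of these genes without the block and 3 with it, in either tool, where 5.92% of all genes were under it in blocked edgeR and 5.29% in blocked DESeq2.

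Genes whose level varied most like a member's across the 14 settled plates, after each replicate's mean was removed, were sought among 10762 genes with a mean of at least 5 CPM. The plates share libraries, culture and condition, so these coefficients are descriptions. For Cyp1a1 the nearest were Katnbl1 (Pearson r = 0.914), Dkk1, the gene for a secreted Wnt antagonist (0.911), and Rrs1 (0.895). For Nqo1 they were Alas1, the first enzyme of haem synthesis (0.898), Dcun1d2 (0.893) and Mup6 (0.889). The nearest to Tiparp were Socs7 (0.945), AC164426.2 (0.858) and Cpsf1 (0.833), and those nearest to Arnt were Mical1 (0.885), Lrig2 (0.883) and Zfp961 (0.869).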

How the data were processed

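The authors aligned Smart-SCRB reads to mm10 and deposited raw UMI counts per gene and well, without normalization. The aligner, counting program and gene annotation are not given in the sources used here. They also deposited the percent of counts from ERCC spike-ins per well and for each plate the saturation, that is the fraction of reads whose molecule had been read before (0.283 to 0.579). Rows of 92 ERCC transcripts and 11 transgene sequences were left out, which together held 3.65% of counts. The members and lists were chosen with earlier results of these data known.

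Counts of cells with more than 2600 detected genes were summed per replicate and condition (6064936 to 50448320 UMIs) and tested across all genes with edgeR 4.0.16 (quasi-likelihood, TMM, low-count filter, Benjamini-Hochberg, threshold 0.05) in R 4.3.3, without a block. The labels do not give the culture behind each plate beyond its replicate. Replicate numbers pair the samples: the study replicated the whole procedure, and deviations of the 2 sums of a replicate from the condition means correlated across genes at 0.866, 0.824 and 0.666. The blocked fit and DESeq2 1.42.0 were alternatives, with other scaling, filters, cells, plates and replicates. The SE given for edgeR is the absolute log2 fold change divided by the square root of the quasi-likelihood F statistic, and that for DESeq2 is its own. Intervals were exact (Clopper-Pearson, Poisson or conditional binomial). Well barcodes repeat on every plate, and libraries were separated by plate. No doublet caller was run on these sorted wells. Fits were tested on simulated data. Named from each list were the 2 genes of highest mean CPM and the 2 of largest change among those with at least 5 CPM. A few genes of the lists are not reported here. Patterns were compared on log2(CPM + 1). Python 3.11.15, numpy 2.4.6, scipy 1.17.1 and pandas 2.3.3 were used, with GENCODE vM21 gene positions and RefSeq promoter windows, in which 6 of 7 members matched by symbol.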

Additional observations from a re-analysis of the deposited data

Results flagged for a closer look

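On the disputed plates of replicate 3, which enter no comparison, the levels of 3 genes lay above the settled control plate of that replicate beyond their exact Poisson intervals. The plate annotated auxin stood at 36.2 CPM for Cyp1a1, 4.51 CPM for Cyp1b1 and 83.4 CPM for Nqo1. The plate annotated control stood at 73.1 CPM for Nqo1. The settled control plate held 0.165, 1.32 and 55.1 CPM of Cyp1a1, Cyp1b1 and Nqo1. In the other direction, Tiparp on the plate annotated auxin was at 7.89 CPM (5.84 to 10.4) against 13.5 CPM (10.8 to 16.8) on the settled control plate, and Ahr had no UMI there, for which the interval reaches 0.594 CPM, against 0.330 CPM on the settled control plate and 3.14 CPM on the settled auxin plate. On the 2 control-annotated plates of replicate 3, 3 wells held a Cyp1a1 UMI, and 2 of them share their well barcode with a positive well on an auxin-annotated plate. In replicates 1 and 2, 0 of 1 and 0 of 4 positive control wells did so. The 2 auxin-annotated plates of replicate 3 held 13 positive wells each among 96 barcodes, and 3 wells are too few to judge such sharing. What part shared barcodes have in the control counts was not tested.

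Among the groups of 4 plates of replicate 2, 14 in all, 2 had a plate far from the other 3. For Arnt it was an auxin plate at 26.0 CPM, and for Nqo1 a control plate at 57.6 CPM. Chance alone flags about 1 in 20 such groups.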

How the results depend on the processing

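Genes called over the whole table numbered 0 without a block in DESeq2 and in edgeR, the latter also with another scaling, without the filter, with other cells, without each replicate and with either placement of the disputed plates. With the replicate block the count was 3 (with the disputed plates as annotated 3, as in the source values 0), 56 in DESeq2, 235 on plate sums and 154 on plate sums without the filter on low counts, and 14, 32 and 2 without replicates 1, 2 and 3. Cyp1a1 kept a positive log2 fold change in all 18 alternatives that gave it a value. It passed the threshold in DESeq2 with the block (5.11), on plate sums without the filter (4.92) and in the blocked fits without replicate 1 or without replicate 2 (4.74 and 5.87). The filter removed it from the fit of filtered plate sums. With the disputed plates as in the source values its mean log2 ratio moved from 5.23 to 2.61. Its difference in share kept its direction, between 5.35 and 14.5 percentage points.

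The block turned the sign of Arnt (0.032 in edgeR, 0.017 in DESeq2), as did leaving out replicate 2 (0.15, with the block 0.24, against -0.18 without replicate 1), leaving out replicate 3 with the block (0.064), and placing the disputed plates as annotated (0.0061, with the block 0.062) or, with the block, as in the source values (0.00083). Ahrr turned without replicate 1 (-0.041, with the block -0.21), and without replicate 2 it was 1.70. Ahr, Cyp1b1, Tiparp and Nqo1 kept their direction in all 19 alternatives and did not pass the threshold where an adjusted p was given (DESeq2 with the block gave none for Ahr and Cyp1b1). The alternatives of the blocked fit with disputed plates, of unfiltered plate sums and of log2 ratios per replicate were chosen after seeing the data. The causes of these changes were not tested. Depth limits Ahr, Ahrr, Cyp1b1 and control Cyp1a1 most: 3 UMIs correspond to between 0.0595 and 0.495 CPM per sum.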
